A study of Capra hircus with 12 samples.

Results

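Regressing cashmere follicles were compared with growing ones by bulk RNA sequencing of secondary hair follicles, the small skin follicles that grow the fine undercoat of the cashmere goat (Capra hircus). The comparison rests on 8 of the 12 libraries of the study. Catagen was labelled in November and December (4 libraries) and anagen in May and September (4 libraries), with 1 female and 1 male goat in each month, all aged 1.5 years. Telogen libraries from February and March (4) counted towards which genes were tested, and entered the fits only to help estimate the spread. The members were taken by these stage labels and no measured value chose them. The labels name no treatment and no breed, and they do not say whether the same goats were sampled in several months or how the follicles were separated from the skin.

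The hair follicle cycles through growth (anagen), regression (catagen) and rest (telogen). In anagen the matrix at the base of the bulb divides and its daughters harden into the hair shaft and the inner root sheath. In catagen the matrix stops dividing, the lower follicle is lost by apoptosis, and the dermal papilla, the mesenchymal cluster under the bulb, moves upwards with the shrinking epithelial strand.

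One value per gene and library was deposited, headed TPM, a length-scaled measure of transcript abundance, and genes reaching 1 in at least 2 of the 12 libraries were tested, 16095 of 20326. Differences are given on the scale log2(value + 1), which understates the change of genes with low values. Read depth is unknown. The 8 libraries listed 18637 to 19276 genes above 0 in catagen and 18875 to 19560 in anagen. Ribosomal protein transcripts took 20.7 to 24.9% of the signal in catagen and 17.7 to 22.4% in anagen, and transcripts of the mitochondrial genome took 2.07 to 3.51% in catagen and 1.53 to 2.42% in anagen. Follicle identity was checked on keratins. KRT25, a keratin of the inner root sheath, had 4129 to 6458 in catagen and 5209 to 7416 in anagen, and KRT35, a hair shaft keratin, had 411.43 to 708.33 in catagen and 480.58 to 593.89 in anagen. The epidermal keratin KRT10 was present as well, at 536.24 to 1146 in catagen and 718.87 to 1947 in anagen. The first principal component of the 8 libraries held 37.7% of the variance, with the catagen libraries at -23.67 to -0.704, the September libraries at -8.169 and 10.94 and the May libraries at 30.88 and 33.53. Both May libraries stood apart from catagen, and the September male fell inside the catagen range. Since the tissue was sequenced in bulk, fewer cells of a type and less RNA per cell cannot be told apart.

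Few genes passed between the stages. In limma 9 of 16095 genes (0.0559%) fell in catagen and 0 rose at an adjusted p below 0.05, with 2519 genes at an unadjusted p below 0.05, of which 1216 were higher (7.56%) and 1303 lower (8.1%). All 9 had the 4 catagen libraries below the 4 anagen libraries, an arrangement found in 584 genes (3.63%), and the opposite one in 547 (3.4%). The 9 are an S100 protein, 2 kallikrein proteases, a Ly6-family protein, a calpain, a lipid droplet protein, a transmembrane protein and 2 genes without names. With 1 library left out the count became 3 (September female or December female), 4 (May male or December male) or 5 (February male or March male). It was 6 without the May female or September male, 7 without the November male or February female, 10 without the November female and 13 without the March female. Without the November male or the December male, 1 of the genes that passed was higher in catagen. Without the telogen libraries in the fit, 4 genes passed, all of them among the 9. With both May libraries left out, 4 genes passed, of which 2, S100A7A and LOC108633164, belong to the 9. The stage fit counted the 4 libraries of a stage as replicates, although they come from only 2 months. Each stage was sampled in its own months, so stage and season cannot be told apart.

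S100A7A (gene ID 102173556), a calcium-binding protein of the psoriasin group made by stratified epithelium, was nearly absent from catagen. Its values were 0.91 and 0.46 in November, 0 and 0.41 in December, 383.8 and 292.27 in September and 132.31 and 295.53 in May (female first, then male; the 4 catagen values below keep this order). No catagen library came near the lowest anagen library, and telogen lay in between, at 1.47 to 21.06. The difference was -7.52 in log2 units with an SE of 0.523 (limma, adjusted p = 3.399e-05), and it kept its call in 25 of 25 alternative settings, leaving out any 1 library included.

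Both unnamed genes among the 9 followed the same course. LOC108633164, on no placed chromosome in the RefSeq assembly ARS1.2, had 12.05, 1.46, 1.42 and 2.64 in catagen, against 456.83 and 571.19 in September and 170.03 and 364.42 in May. It fell by 6.45 (SE 0.5409, adjusted p = 0.0001684) and kept its call in 25 of 25 settings. LOC102191570 had 5.67, 6.06, 4.49 and 0.91 in catagen, against 595.74 and 426.71 in September and 211.98 and 499.24 in May. It fell by 6.43 (SE 0.885, adjusted p = 0.0195) and lost the call in 7 of 25 settings, at an adjusted p of up to 0.1735. In both genes every catagen library lay far below every anagen one.

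In the gene order of ARS1.2, LOC102191570 follows S100A7A on chromosome 3 with only the pseudogene LOC108635628 between them. S100A8 and S100A9, whose proteins pair to form calprotectin in inflamed or stressed epithelium, lie shortly before S100A7A with an unnamed gene next to each. S100A8 had 7.26, 8.83, 2.17 and 6.1 in catagen, against 18.26 and 45.74 in September and 15.27 and 9.68 in May, a difference of -1.60 (SE 0.4619, adjusted p = 0.263). S100A9 had 8.52, 9.25, 5.09 and 4.63 in catagen, against 17.12 and 47.43 in September and 15.98 and 12.76 in May, a difference of -1.48 (SE 0.3514, adjusted p = 0.263). Neither pair of groups overlapped, though neither gene passed, and the September male was the highest library for both. The summed level of myeloid markers was also highest of the 8 libraries in the September male, at 113.8, and its part in these differences was not tested. The S100 genes beyond LOC102191570 had smaller differences, most of them negative, and did not pass. S100A5 lay lower in every catagen library (1.18 to 3.46, against 3.87 to 5.79 in anagen), and S100A2 overlapped at a difference of -0.93 (adjusted p = 0.3157). S100A6 stood at -0.51, S100A4 at -0.45, S100A14 at -0.34 and S100A13 at -0.20. On the other side, S100A1 stood at 0.49, S100A3 at 0.21 (adjusted p = 0.4451 and 0.7208) and S100A16 at 0.12. Of 16 S100 genes tested, 4 were lower in every catagen library (25%, beside 3.63% of all genes) and 0 higher (3.4% of all genes), with a median difference of -0.37 beside -0.02 over all genes. This list, too, was chosen with earlier results of these data known, so its share is descriptive. Related S100 genes can share reads, and how reads were divided among them was not tested.

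**Figure D1:**
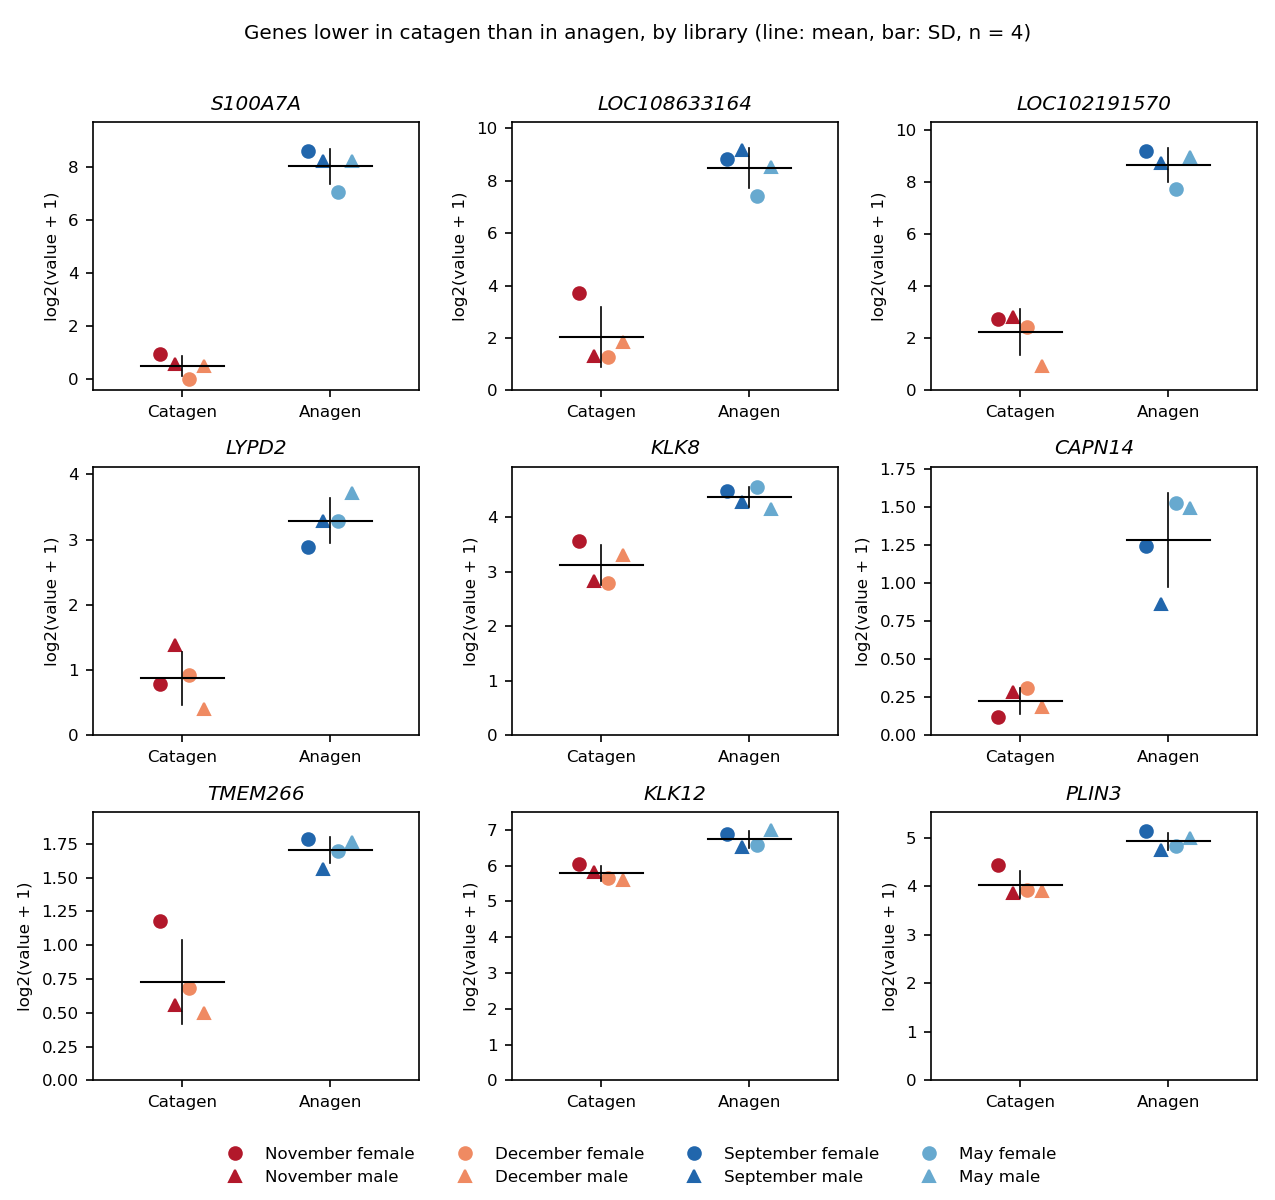
The 9 genes that passed the comparison of catagen with anagen, as log2(value + 1) in each of 8 libraries; points are libraries coloured by month with circles for females and triangles for males, horizontal lines are group means and vertical bars the SD of 4 libraries. In each of the 9 genes every catagen library lies below every anagen library, by the widest margin in S100A7A, LOC108633164 and LOC102191570.

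Kallikreins, the serine proteases that cleave cell junctions as the outer layers of stratified epithelium are shed, were mostly lower in catagen. Of 11 tested, 9 had all catagen libraries below all anagen libraries (81.8%, beside 3.63% of all genes), and the median difference was -0.79 beside -0.02 over all genes; the median stayed negative in 25 of 25 settings, at -0.99 to -0.44. These 9, KLK5 to KLK13, stand in number order on chromosome 18 of ARS1.2, with 1 non-coding RNA gene, LOC106503145, between KLK10 and KLK11. KLK4 before them and KLK14 after them overlapped between the stages, at differences of 0.03 and -0.27. The kallikrein list was chosen with earlier results of these data known, so its share describes these genes and is no test.

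KLK12 (gene ID 102179696) had 65.64 and 55.14 in November, 49.64 and 47.44 in December, 115.99 and 90.15 in September and 93.64 and 127.14 in May. The highest catagen library lay well below the lowest anagen one. It fell by 0.95 (SE 0.127, adjusted p = 0.017), a call lost in 6 of 25 settings, among them those without the May male, without either December library or without the September female (adjusted p up to 0.1537). KLK8 (gene ID 102178849) had 10.73, 6.14, 5.9 and 8.89 in catagen, against 21.35 and 18.33 in September and 22.39 and 16.79 in May. It fell by 1.24 (SE 0.1854, adjusted p = 0.03234), and the call was lost in 11 of 25 settings, with the adjusted p at up to 0.285.

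KLK6 had the largest difference of the family, -1.33 (SE 0.2597, adjusted p = 0.1596), from 8.68, 9.82, 12.89 and 14.24 in catagen, against 25.21 and 21.13 in September and 43.56 and 33.52 in May. KLK13 stood at -0.82 (adjusted p = 0.0924), with 7.34 to 9.28 in catagen and 13.18 to 18.5 in anagen. KLK5, which can activate other kallikreins of the skin, had 19.23 to 25.96 in catagen and 33.19 to 57.14 in anagen, and KLK11 had 76.46 to 103.29 in catagen and 114.48 to 236.54 in anagen. KLK7, the stratum corneum chymotryptic enzyme, stood at -0.34 (adjusted p = 0.2692), with 368.63 to 485.56 in catagen and 491.46 to 555.88 in anagen. KLK9 lay at 9.02 to 11.38 in catagen and 13.2 to 15.61 in anagen, and KLK10 at 265.31 to 408.02 in catagen and 408.65 to 465.07 in anagen, the narrowest gap of the 9.

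**Figure D2:**
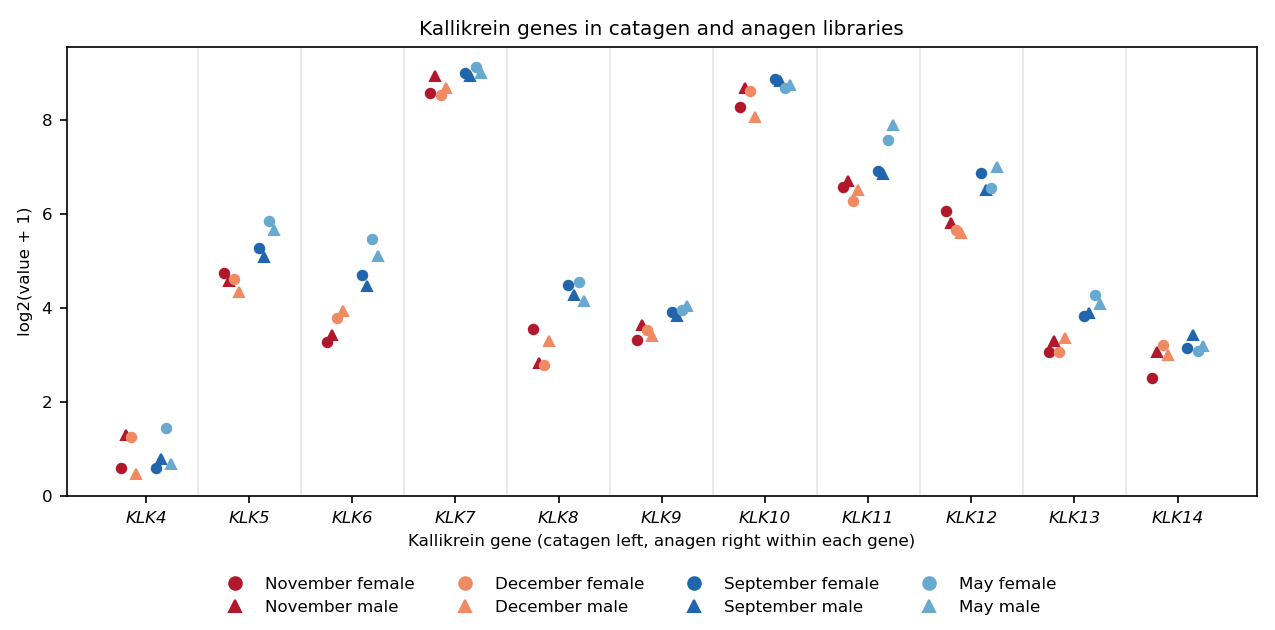
Values of the 11 tested kallikrein genes as log2(value + 1), with catagen libraries on the left and anagen libraries on the right of each gene; circles are females and triangles males. From KLK5 to KLK13 the catagen points all lie below the anagen points, whereas KLK4 and KLK14 overlap.

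The remaining 4 genes that passed were LYPD2, PLIN3, CAPN14 and TMEM266. LYPD2 (gene ID 102177073), a member of the Ly6 family of small surface proteins, had 0.73, 1.6, 0.9 and 0.32 in catagen, against 6.39 and 8.78 in September and 8.69 and 12.11 in May. It fell by 2.42 (SE 0.2697, adjusted p = 0.003198) and lost the call in 1 of 25 settings, without both May libraries (adjusted p = 0.1122). PLIN3 (gene ID 100861244), a coat protein of lipid droplets, had 20.75, 13.56, 14.17 and 13.88 in catagen, against 34.47 and 25.95 in September and 27.52 and 30.68 in May. It fell by 0.90 (SE 0.1341, adjusted p = 0.03234); the November female was the highest catagen library and still under the anagen range. PLIN2, another droplet coat protein, overlapped between the stages, with 264.56 to 354.82 in catagen and 250.17 to 445.12 in anagen. CAPN14 (gene ID 102191057), a calcium-dependent protease of stratified epithelium, had 0.09 to 0.24 in catagen and 0.82 to 1.89 in anagen and fell by 1.06 (SE 0.1618, adjusted p = 0.0331). Without its anagen values CAPN14 would not have met the filter. TMEM266 (gene ID 102188804), a transmembrane protein with a voltage sensor domain, had 0.41 to 1.26 in catagen and 1.96 to 2.45 in anagen and fell by 0.98 (SE 0.149, adjusted p = 0.0331). Calls were lost in 11 of 25 settings for PLIN3, 16 of 24 for CAPN14 and 14 of 24 for TMEM266.

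Named genes that did not pass but had no overlap between the stages, with a mean of at least 5, were ranked by the smaller of their differences from September and from May. Among those lower in catagen, SPINK7, an inhibitor of serine proteases, had 18.51, 52.44, 21.07 and 21.08 in catagen, against 114.31 and 175.81 in September and 97.22 and 231.47 in May. The difference was -2.46 (SE 0.4264, adjusted p = 0.0924), with the November male well above the other catagen libraries. KRT4, a keratin of moist stratified epithelia, had 1.48, 0.52, 1.13 and 0.38 in catagen, against 17.67 and 10.92 in September and 2.27 and 6.91 in May, a difference of -2.26 (adjusted p = 0.0924). AQP3, the glycerol and water channel of basal keratinocytes, had 74.26 to 106.12 in catagen and 136.29 to 220.27 in anagen, a difference of -0.91 (adjusted p = 0.1597). AQP5, a water channel of sweat glands, had 2.48 to 9.46 in catagen and 9.64 to 11.12 in anagen, where the November female nearly reached the anagen range. KRT38, a keratin of the hair shaft, had 8.42 to 10.86 in catagen and 17.57 to 27.03 in anagen, without overlap (adjusted p = 0.263). TNFRSF18, a receptor of the TNF family known from regulatory T cells, had 3.97 to 5.86 in catagen and 8.15 to 12.52 in anagen, and CREB3L4, a membrane-bound transcription factor, had 4.34 to 6 in catagen and 8.37 to 12.08 in anagen.

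In the other direction, 10 genes were named although no gene passed in the fit by stage. With month as the factor 3 genes rose (0.0186%), PARPBP, LOC102176710 and LOC102168680, and 26 fell (0.162%), the 9 among them. Against September alone LOC102176710 stood at 0.25 and LOC102168680 at -0.23 (limma, adjusted p = 0.9777 for both), so their rise rests on May. The 26 also hold skeletal muscle genes such as TNNC2, MYL1 and CKM, for which September lay near catagen and May was high. TH, tyrosine hydroxylase of catecholamine synthesis, had 20.28, 19.7, 19.38 and 23.8 in catagen, against 12.12 and 14.18 in September and 9.09 and 4.25 in May, a difference of 1.10 (SE 0.2983, adjusted p = 0.263). TNFSF10, the death ligand TRAIL, had 13.68 to 19.41 in catagen and 7.5 to 12.08 in anagen, a difference of 0.74 (SE 0.3071, adjusted p = 0.285). Its telogen libraries ran wider, at 11.39 to 36.95. PARPBP, which restrains homologous recombination, had 7.92 to 9.39 in catagen and 3.35 to 6.08 in anagen, a difference of 0.87 (SE 0.1713, adjusted p = 0.1638). Another recombination gene, RAD51C, had 19.75 to 29.58 in catagen and 14.86 to 17.9 in anagen, and CENPQ, of the centromere, had 6.21 to 9.13 in catagen and 3.94 to 5.18 in anagen. BCL6, a transcriptional repressor, had 37.7 to 59.54 in catagen and 29.27 to 34.63 in anagen; JAM2, a junction protein of endothelium, had 14.13 to 17.75 in catagen and 8.63 to 12.88 in anagen. NDUFA4L2, a hypoxia-induced mitochondrial protein, had 41.64 to 63.52 in catagen and 26.09 to 37.81 in anagen. The other 2, ND5 and CYTB, are encoded in the mitochondrial genome. ND5 had 247.02 to 379.61 in catagen and 170.11 to 206.23 in anagen, CYTB had 902.51 to 1328 in catagen and 617.35 to 840.13 in anagen, and ND6 also separated the stages, while the other 10 mitochondrial genes overlapped. These 3 are 23.1% of the 13, beside 3.4% of all genes. The median over the 13 was 0.68 against both anagen months, 0.50 against September and 0.88 against May, beside -0.02, -0.01 and -0.02 over all genes.

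**Figure D3:**
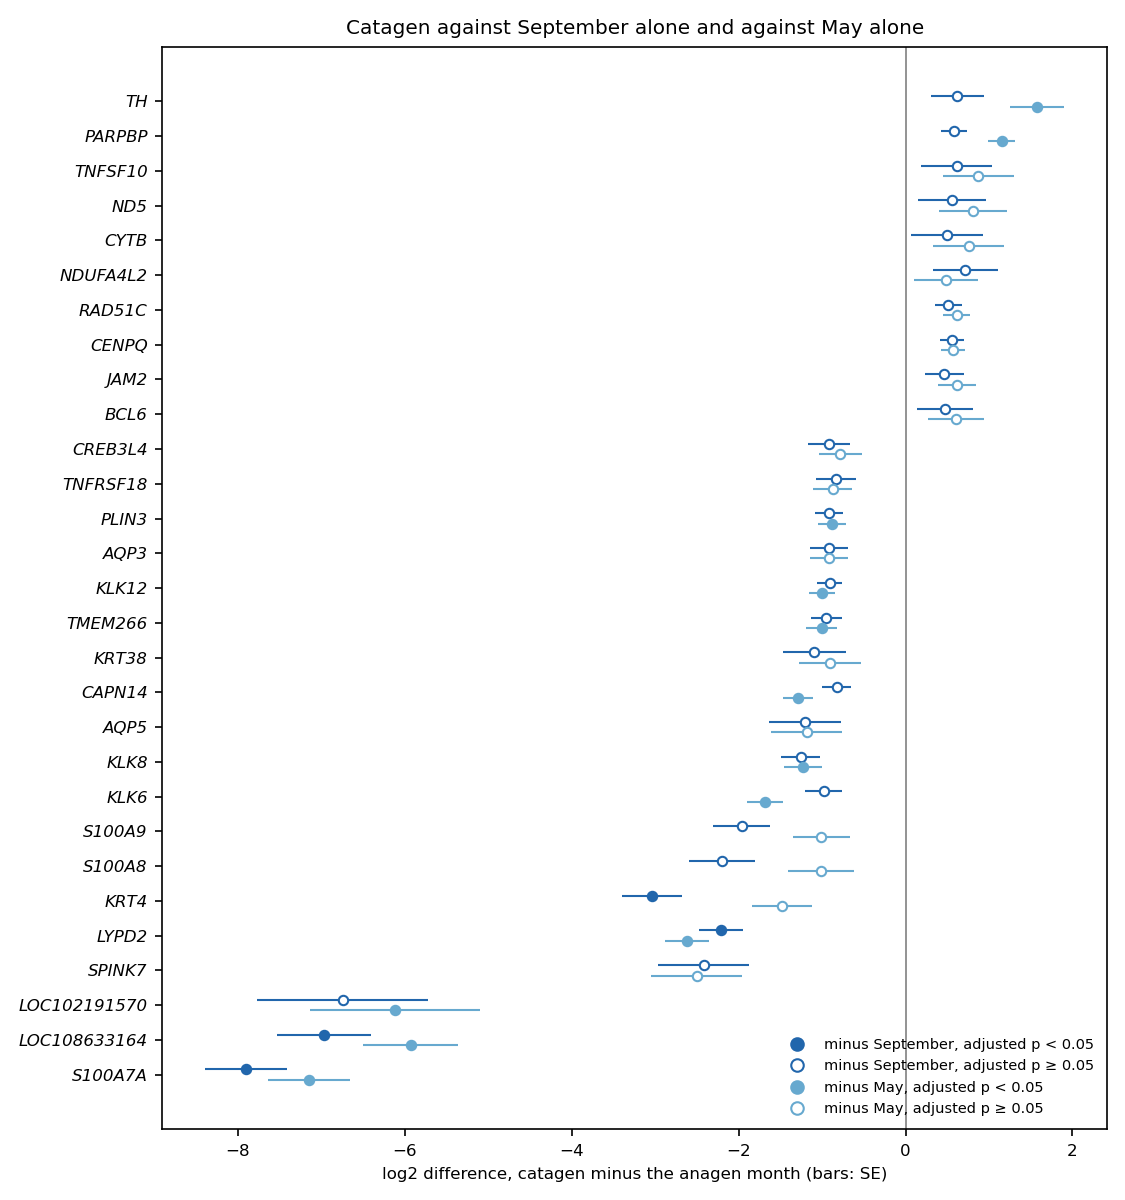
Differences of catagen from September alone and from May alone for the 9 genes that passed and the 20 named by rank, as log2 with bars for 1 SE; filled points passed at an adjusted p below 0.05. The catagen libraries enter both differences, and every gene shown has catagen libraries that do not overlap with either month, which fixes the side of 0; S100A7A, LOC108633164 and LYPD2 have filled points for both months, while for LOC102191570 only the point for May is filled.

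Genes of cell division lay mostly higher in catagen, without passing. Their list was chosen with earlier results of these data known, so its shares are descriptive. Of 38 tested, 0 passed, 9 were higher in every catagen library (23.7%, beside 3.4% of all genes), 0 were lower in every one, and the median difference was 0.16, with 0.10 against September and 0.21 against May. TOP2A, the topoisomerase of dividing cells, had 67.91 to 90.02 in catagen, against 55.5 and 67.32 in September and 45.34 and 47.63 in May, a difference of 0.49 (SE 0.1603, adjusted p = 0.263). UBE2C, a ubiquitin conjugase of mitotic exit, had 61.63 to 69.39 in catagen and 38.93 to 60.03 in anagen, and NUSAP1, a spindle protein, had 29.13 to 33.92 in catagen and 19.05 to 28.51 in anagen. For these 3 the September male came close to the lowest catagen library. The other 6 without overlap were CCNB2, AURKB, KIF11, CENPF, TPX2 and CCNE2. MKI67, the usual marker of cycling cells, did not go with them: it had 11.36, 10.69, 15.41 and 11.37 in catagen, against 11.38 and 11.55 in September and 13.55 and 14.13 in May, a difference of -0.06 (SE 0.1259, adjusted p = 0.8474). The MCM genes, which license DNA replication, lay between -0.13 for MCM3 and 0.05 for MCM6.

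Genes known to bring on or hold off catagen in mouse or human follicles had 0 that passed. Of 26 tested catagen-associated signals, 0 passed and 0 separated the stages, with a median of 0.02. FGF5, the growth factor whose loss lengthens anagen, had 4.99, 3.47, 2.5 and 3.86 in catagen, against 3.12 and 4.19 in September and 4.28 and 3.41 in May, a difference of -0.03 (SE 0.3372, adjusted p = 0.9716). TGFB1 stood at -0.11 (SE 0.1411) and TGFB2, a catagen inducer in human follicles, at 0.10 (SE 0.1137). The vitamin D receptor VDR stood at 0.14 and the prolactin receptor PRLR at 0.07 (adjusted p = 0.5467 and 0.8602). Of 22 growth factors that maintain anagen and their receptors, 1 was higher and 1 lower in every catagen library (4.55% each, beside 3.4% and 3.63% of all genes); the lower one was VEGFA, the vascular growth factor, with 9.48 to 10.91 in catagen and 11.97 to 13.51 in anagen. IGF1 stood at -0.13 and HGF at 0.23, both with overlapping groups.

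Apoptosis genes were mixed. Of 28 tested, 0 passed, 2 were higher in every catagen library (TNFSF10 and TP63) and 2 lower (FAS and CASP9), and the median was -0.02. That is 7.14% each way, beside 3.4% of all genes higher and 3.63% lower. TP63, the regulator of basal epithelial cells, had 220.9 to 297.1 in catagen and 183.97 to 208.25 in anagen, a difference of 0.40 (SE 0.1561, adjusted p = 0.2734). FAS, a death receptor, had 25.83 to 29.72 in catagen and 30.1 to 37.33 in anagen. The survival factor BCL2 stood at -0.30 (SE 0.1405) and BAX, its antagonist, at -0.21 (SE 0.1532), with adjusted p = 0.3205 and 0.5077. In the list of autophagy and lysosome genes, with a median of -0.05, ATG3 was higher in every catagen library (54.98 to 60.4, against 44.92 to 53.95 in anagen), and ATG7 and ATG16L1 were lower in every one. That is 4.76% of the list higher and 9.52% lower, beside 3.4% and 3.63% of all genes.

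Signals of the hair bulb showed small differences. SHH, the hedgehog ligand of the matrix, had 4.63, 4.7, 5.55 and 4.07 in catagen, against 3.38 and 4.05 in September and 3.8 and 2.56 in May, a difference of 0.37 (SE 0.1371, adjusted p = 0.2674). The lowest catagen library was barely above the highest anagen one. MSX2, a homeobox regulator of the matrix, had 69.25 to 84.51 in catagen and 53.75 to 65.08 in anagen, a difference of 0.35 (SE 0.1664, adjusted p = 0.3245). HOXC13 and FOXN1, which drive hair keratin genes, stood at 0.32 and 0.25 with overlapping groups, and LEF1, the Wnt effector of the matrix, at 0.23. Of 20 hair matrix regulators 2 were higher in every catagen library (10%, beside 3.4% of all genes), and 1, RUNX3, was lower (5%, beside 3.63%), with a median of 0.14. In the BMP and TGF-beta list 5 of 36 were higher in every catagen library (13.9%, beside 3.4% of all genes) and 0 lower (3.63% of all genes): the ligand BMP6, the receptors BMPR2 and ACVR2A, the signal carrier SMAD5 and the target ID4, at differences of 0.22 to 0.34. BMP2 and BMP4 were not among them, at 0.14 and -0.05. As earlier results of these data were known when the lists were chosen, these shares are descriptive. BMP1, a protease of the list, fell by 0.54 against May (adjusted p = 0.04147), with 13.92 to 16.79 in catagen and 23.59 and 23.69 in May. Of 52 Wnt genes only WNT3 separated the stages (1.92%, beside 3.63% of all genes lower), with 6.5 to 8.43 in catagen and 8.56 to 14.32 in anagen. Hedgehog (median -0.09), Notch (0.02), dermal papilla (0.08) and bulge and stem cell genes (0.08) had 0 genes that passed; LHX2, a factor of follicle stem cells, stood at -0.11.

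Inner root sheath genes had 0 that passed. Of 11 tested 9 had negative differences (53.5% of all genes did) and 0 separated the stages, with a median of -0.29. KRT27 had 3670 to 6117 in catagen and 4832 to 7064 in anagen, where the November female was the only catagen library inside the anagen range, and TCHH, trichohyalin of the sheath and medulla, stood at -0.12. Of 8 hair shaft keratins KRT38 and KRT36 were lower in every catagen library (25%, beside 3.63% of all genes), while KRT35 stood at -0.02 and KRT84 at 0.20. KRT5 and KRT14, the paired keratins of basal and outer root sheath cells, stood at -0.34 and -0.26. Among 33 genes of epidermal differentiation 2 fell, LYPD2 and CAPN14 (0.0559% of all genes did), and 28 had negative differences, with a median of -0.20. The list was chosen with earlier results of these data known, and CAPN14 met the filter only through anagen. The 2 falls are therefore not weighed against the share of all genes. TGM1, the transglutaminase that cross-links the cornified envelope, had 25.33 to 38.17 in catagen and 38.27 to 51.49 in anagen, with the November female and September male almost touching. KRT1 had 273 to 594.31 in catagen and 455.63 to 1256 in anagen, and the late marker LOR 31.84 to 66.11 in catagen and 29.67 to 113.45 in anagen, both overlapping. Desmosome genes, which hold these cells together, had a median of 0.06 over 12.

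Transcripts of ribosomal proteins had positive differences in 57 of 74 genes (46.5% of all genes did). Their median was 0.26 against both anagen months, 0.08 against September and 0.39 against May. RPL22, of the large ribosomal subunit, was the 1 member higher in every catagen library (2056 to 2609, against 1335 to 1932 in anagen). That is 1.35% of the list, beside 3.4% of all genes. RPL38, another protein of the large subunit, rose by 1.17 against May (adjusted p = 0.03918). Of 46 nuclear genes of the respiratory chain 1, NDUFS5, was higher in every catagen library (2.17%, beside 3.4% of all genes). The median was 0.02, with -0.09 against September and 0.11 against May, and it changed sign in 7 settings. NDUFA3, a subunit of complex I, rose by 1.19 against May (adjusted p = 0.01799), with 173.69 to 247.35 in catagen and 87 and 97.28 in May.

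Clock genes, which keep daily time and respond to season in many mammals, were examined since the stages fall in different months. Of 21 tested, 0 passed, 2 were lower in every catagen library (9.52%, beside 3.63% of all genes) and 1 higher (4.76%, beside 3.4%), with a median of -0.12. ARNTL2, a partner of CLOCK, had 1.81, 1.89, 2.15 and 1.9 in catagen, against 3.18 and 2.55 in September and 4.87 and 5.28 in May, a difference of -0.72 (SE 0.2098, adjusted p = 0.263). The period gene PER2 had 9.73 to 11.29 in catagen and 12.02 to 15.59 in anagen. BHLHE41, a repressor of the clock, had 8.42 to 10.68 in catagen and 6.96 to 7.9 in anagen. DBP, an output factor of the clock, overlapped between the stages but fell by 0.57 against May (adjusted p = 0.04147). The hour of sampling is not given in the labels, so its part was not tested.

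In the sebaceous and lipid droplet list of 22 genes, 2 were higher in every catagen library (9.09%, beside 3.4% of all genes) and 1, PLIN3, lower (4.55%, beside 3.63%), with a median of -0.03. ELOVL3, a fatty acid elongase of sebaceous gland and hair, had 247.4, 242.08, 255.39 and 296.32 in catagen, against 136.25 and 213 in September and 199.76 and 219.76 in May, a difference of 0.46 (SE 0.1988, adjusted p = 0.2992). CIDEC had 2.74 to 4.34 in catagen and 0.66 to 2.26 in anagen. Cholesterol synthesis had 0 of 20 genes without overlap, glycolysis 1 of 19 (5.26%) and interferon response 1 of 17 (STAT2, 5.88%). Matrix metalloproteinases and their inhibitors had 2 of 18 (11.1%). Immediate early and stress genes had 1 of 27 (3.7%), DUSP1, with 35.91 to 42.48 in catagen and 46.3 to 57.38 in anagen. All of these genes were lower in every catagen library, as were 3.63% of all genes. None of these 5 lists had a gene that passed.

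**Figure D4:**
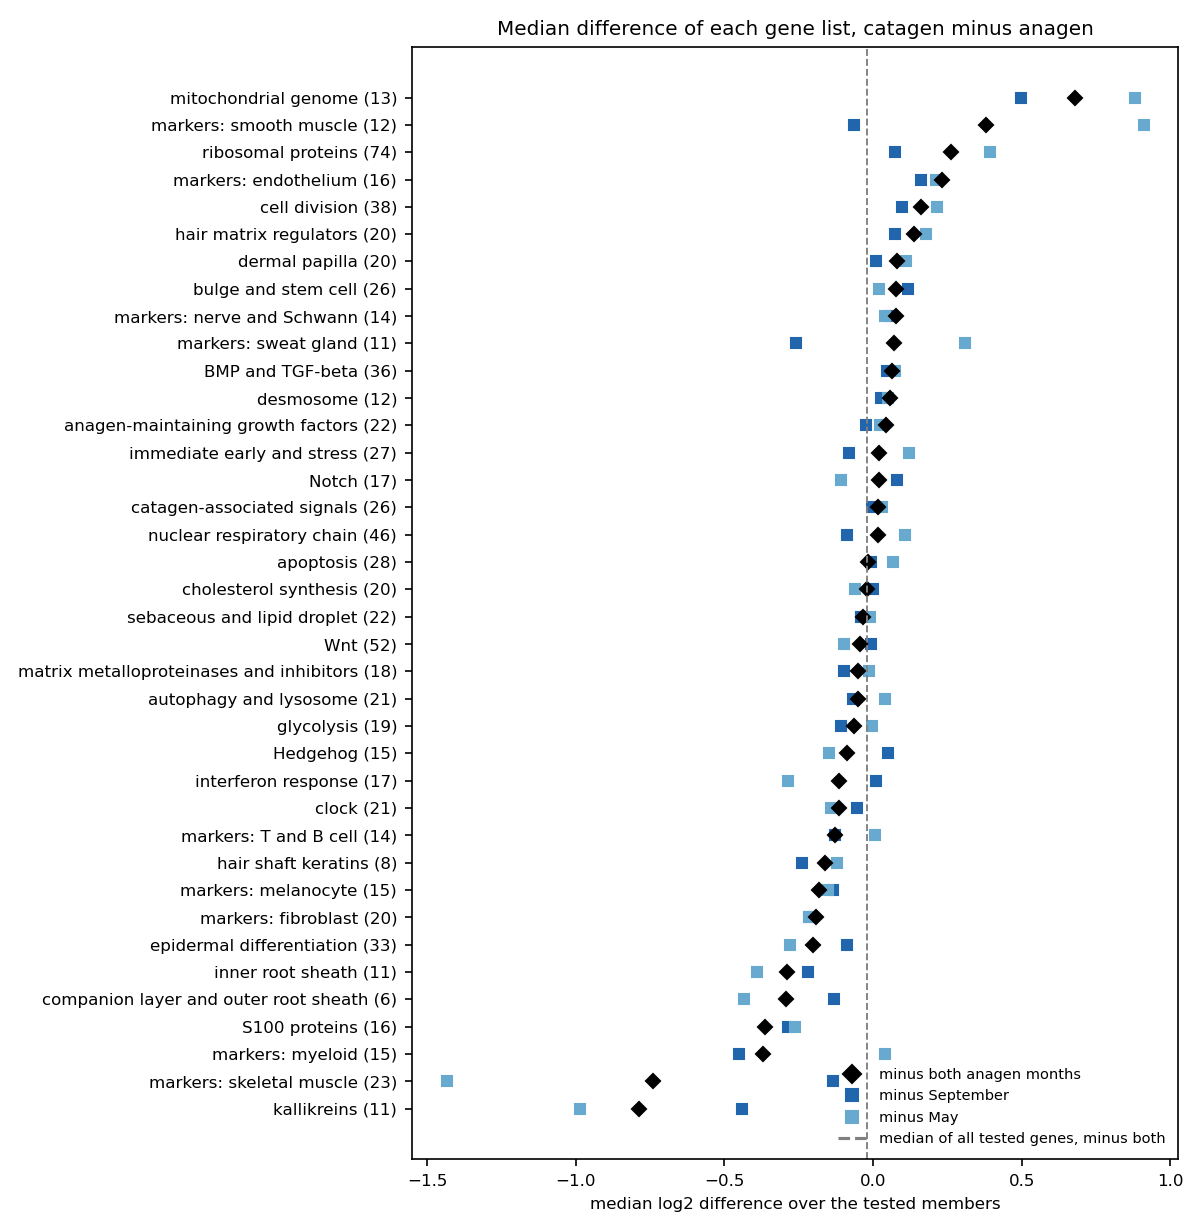
Median log2 difference over the tested members of each of 38 gene lists (number tested in brackets), catagen minus both anagen months (black), minus September (dark blue) and minus May (light blue), with the median of all tested genes as a dashed line. Kallikreins have the lowest stage median at -0.79 and the mitochondrial genome the highest at 0.68; skeletal and smooth muscle markers stand far from 0 against May, at -1.43 and 0.91, and near it against September, at -0.13 and -0.06.

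Against September alone, the month nearest to catagen in the year, 0 genes rose and 6 fell (0.0373%), with 610 at an unadjusted p below 0.05 in limma. The stage genes among them were S100A7A, which fell by 7.90 (adjusted p = 0.0003083), LOC108633164, which fell by 6.96 (adjusted p = 0.001295), and LYPD2, which fell by 2.21 (adjusted p = 0.02468). The other 6 of the 9 missed the threshold with September alone. LOC102191570 stood at -6.74 (adjusted p = 0.124), CAPN14 at -0.83 (0.5103), TMEM266 at -0.95 (0.3953), KLK8 at -1.26 (adjusted p = 0.2833), KLK12 at -0.91 (0.2246) and PLIN3 at -0.92 (0.2833). Their catagen libraries all lay below every anagen library, September included, which fixed the side of 0. LOC102168428, which lies beside HPS5 on chromosome 29 of ARS1.2, had 4.85, 5.32, 2.61 and 1.71 in catagen, against 34.53 and 47.59 in September and 15.28 and 7.22 in May. It fell by 3.25 (SE 0.2636, adjusted p = 0.001295) against September and by 1.41 (adjusted p = 0.0389) against May. KRT4 fell by 3.03 (SE 0.359, adjusted p = 0.02468) against September and stood at -1.48 (adjusted p = 0.06076) against May, and the call was lost in 10 of 20 settings. ACADSB, an enzyme of branched-chain amino acid breakdown, had 12.61, 13.05, 18.17 and 14.57 in catagen, against 32.02 and 44.23 in September and 12.65 and 13.74 in May. It fell by 1.32 (SE 0.1686, adjusted p = 0.03932) against September, while May lay in the catagen range, and September exceeded May by 1.45 (adjusted p = 0.02213). The call was lost in 15 of 21 settings. With the November female left out the count was 3.

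In November relative to September, the step that crosses the stage border, 0 genes rose and 3 fell (0.0186%), with 299 at an unadjusted p below 0.05: S100A7A, LOC108633164 and LOC102168428. S100A7A fell by 7.65 in November relative to September (adjusted p = 0.001641). In December relative to November, both catagen, 0 genes passed in limma (lowest adjusted p = 0.9459), with 588 at an unadjusted p below 0.05. For most libraries left out, the number for November against September stayed near 3. The count for November against September became 0 (September female left out), 1 (February female or February male) or 5 (March male). For December against November it was 3 without the December female and 1 without the December male; a month left with 1 library is assumed to vary like the others. The difference between the stages was compared between the sexes as an interaction, which 0 genes passed, with 193 at an unadjusted p below 0.05 and 2 libraries in each arm; 1 gene passed without the November female and 2 without the November male.

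Against May alone 117 genes rose (0.727%) and 170 fell (1.06%), 1.78% together, with 3835 at an unadjusted p below 0.05 in limma. All 9 stage genes were among the 170, and 6 kallikreins fell: KLK6 by 1.68, KLK8 by 1.23, KLK11 by 1.21, KLK5 by 1.19, KLK12 by 1.00 and KLK13 by 0.99, with adjusted p between 0.003393 and 0.0418. The same May libraries entered the stage comparison that picked the 9. PARPBP rose by 1.15 (SE 0.1569, adjusted p = 0.01353) and TH by 1.58 (SE 0.3215, adjusted p = 0.04226) against May, where against September they stood at 0.58 (adjusted p = 0.9202) and 0.62 (0.9777). CIDEC, a protein of large lipid droplets, rose by 1.10 (adjusted p = 0.04147), with 2.74 to 4.34 in catagen and 0.66 and 1.46 in May. SQSTM1, the autophagy receptor p62, fell by 0.70 (adjusted p = 0.04346), with 106.18 to 158.4 in catagen and 204.13 and 194.4 in May. With each library rescaled to the same sum the split was 50 higher and 511 lower, and the median of all genes was -0.13. Without the November female or either February library the count stayed near that of the full fit. Leaving out 1 library gave 20 (May male), 28 (December female), 37 (November male), 38 (May female), 42 (December male), 109 (September female), 112 (September male), 1091 (March female) or 1106 (March male), so the number of genes for May is not settled.

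Of the 5 largest falls against May among named genes with a mean of at least 5 and no overlap, 1 was S100A7A and the other 4 were genes of skeletal muscle fibres. TNNC2, the calcium sensor of fast fibres, had 0.64, 0.27, 0 and 0.61 in catagen and 0.64 and 0.85 in September, against 71.4 and 66.97 in May. It fell by 5.70 (adjusted p = 1.553e-06) against May and kept the call in 20 of 20 settings. MYLPF, a myosin light chain, had 0 to 0.65 in catagen and 63.26 and 63.32 in May and fell by 5.64 (adjusted p = 1.553e-06). MYL1 fell by 4.28 (adjusted p = 0.0001534), with 0 to 0.16 in catagen and 20.63 and 17.82 in May, and ACTA1, skeletal actin, fell by 3.90 (adjusted p = 0.0005646), with 0.7 to 4.15 in catagen and 36.09 and 32.81 in May. Of 23 skeletal muscle markers 15 fell and 1, DES, rose against May, where 1.06% of all genes fell and 0.727% rose. TTN, one of the 23, reached 1 in the May libraries alone (2.33 and 2.2, against 0.15 to 0.35 in catagen). Members of that kind met the filter only through May, which fixed their fall, so the count is not weighed against those shares. The summed level of the markers without DES, which smooth muscle also makes, was 43.38 to 57.82 in catagen and 50.41 and 54.75 in September, against 329.3 and 332.2 in May. The high muscle levels were those of both May libraries, with September at the catagen level. Against both anagen months TNNC2 stood at -3.03 (SE 1.055, adjusted p = 0.263).

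Smooth muscle markers went the other way. DES, desmin, had 92.95, 137.63, 57.7 and 39.01 in catagen and 88.58 and 88.68 in September, against 23.59 and 17.72 in May, and rose by 1.79 (adjusted p = 0.003393) against May. ACTA2, smooth muscle actin, which also marks the dermal sheath, had 182.15 to 265.01 in catagen and 234.26 and 221.61 in September, against 102.76 and 79.72 in May, and rose by 1.25 (SE 0.1341, adjusted p = 0.002964). CNN1, calponin, rose by 1.85 (adjusted p = 0.0297) against May, and PLN, phospholamban, by 1.83 (adjusted p = 0.03574). Of 12 smooth muscle markers 4 rose against May, where 0.727% of all genes did, and their median was 0.38 against both months but -0.06 against September alone. The summed level was 1018 to 1677 in catagen and 1357 and 1359 in September, against 742.3 and 592.9 in May. MUCL1, a mucin-like secreted protein, rose (adjusted p = 0.03956), with 3.74, 0.35, 62.03 and 19.56 in catagen and a listing at 0 in both May libraries; the call was lost in 8 of 21 settings. SLURP1, a Ly6-like protein secreted by keratinocytes, rose by 1.67 (adjusted p = 0.02807), with 9.25 to 23.81 in catagen and 5.22 and 3.16 in May.

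A pair of unnamed genes split the anagen months; they fall outside the naming rule and were picked after their values were seen. LOC102176710, on chromosome 15 of ARS1.2, had 56.5, 56.53, 97.33 and 61.2 in catagen and 56.14 and 54.75 in September, against 0.91 and 1.66 in May. LOC102168680, beside the haemoglobin gene HBM on chromosome 25, had 42.59, 28.52, 95.35 and 84.74 in catagen and 65.38 and 66.67 in September, against 0.74 and 0.31 in May. They rose by 4.90 (adjusted p = 1.31e-05) and 5.24 (adjusted p = 1.553e-06) against May, and in telogen both stood at 2.2 or below. September exceeded May with adjusted p = 8.674e-05 for LOC102176710 and 6.595e-06 for LOC102168680. In all, 22 genes differed between September and May (0.137%) in limma, 5 higher (0.0311%) and 17 lower (0.106%) in September, with 1572 at an unadjusted p below 0.05. Of the 22, 21 were among the 287 called against May and 0 among the 9 stage genes. The same May libraries enter both comparisons with May, and a gap between the anagen months widens the spread in the stage fit. Both overlaps thus follow in part from the design.

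**Figure D5:**
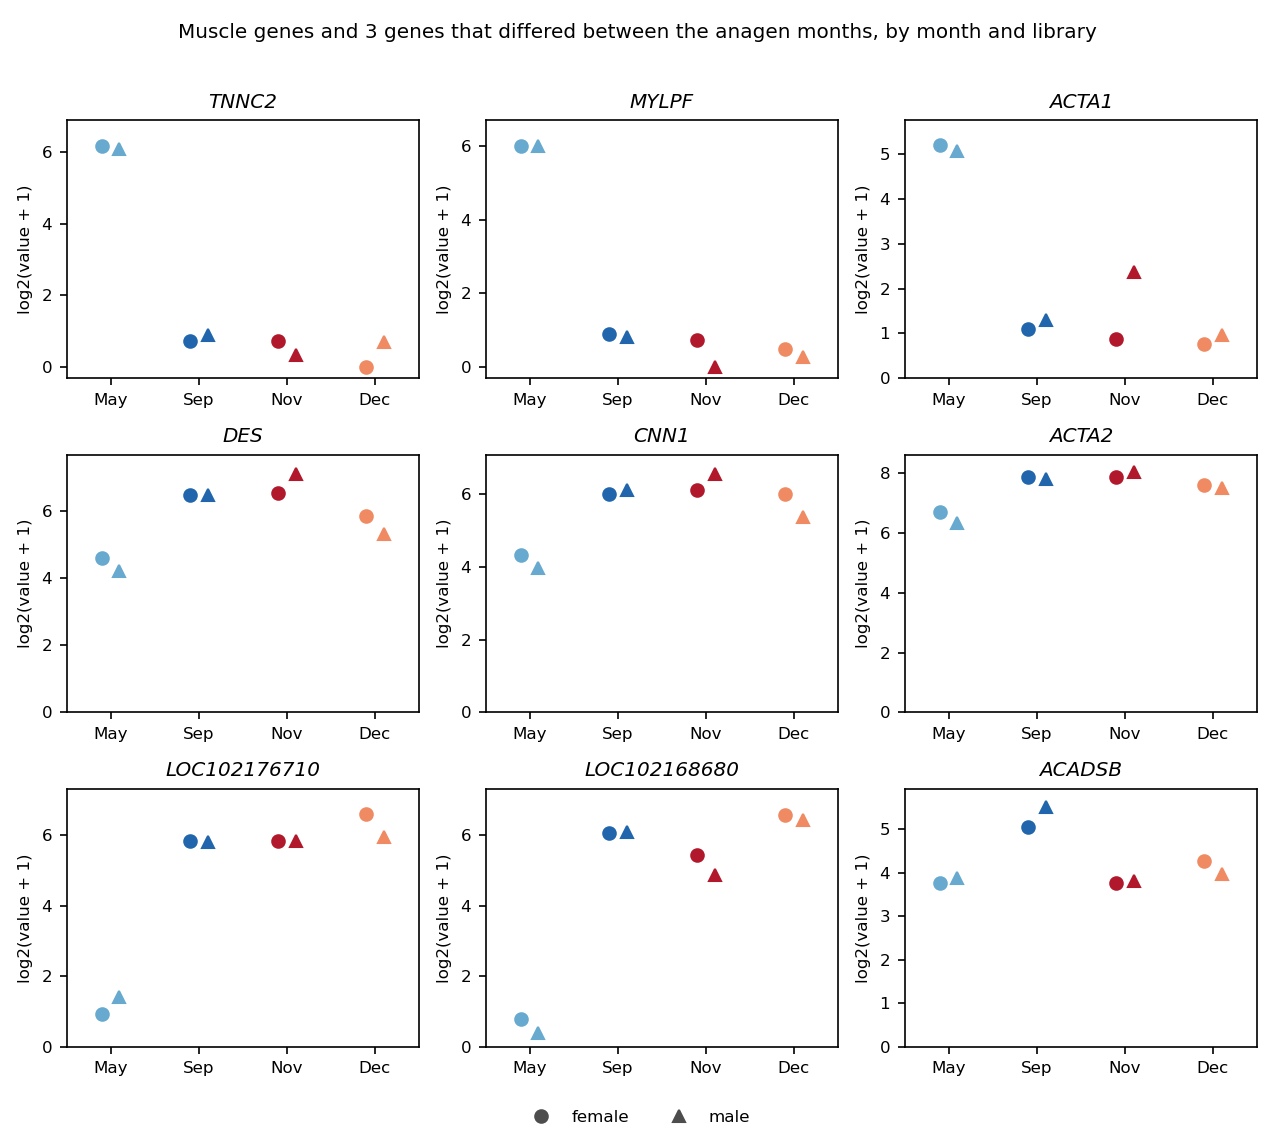
Values of skeletal muscle genes (TNNC2, MYLPF, ACTA1), genes of smooth muscle (DES, CNN1, ACTA2), 2 unnamed genes and ACADSB as log2(value + 1) in May, September, November and December, with circles for females and triangles for males. For the first 8 genes September lies near the catagen months and May apart from them; for ACADSB September is high and May lies with catagen.

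Markers of other cell types had 0 genes that passed between the stages. Endothelial markers had positive differences in 15 of 16 genes (46.5% of all genes did), with 0 that passed and CDH5, VE-cadherin, higher in every catagen library (8.67 to 11.22, against 6.23 to 8.54 in anagen; 6.25% of the list, beside 3.4% of all genes); the median was 0.23. Myeloid markers had negative differences in 13 of 15, with CSF1R, the receptor of the macrophage growth factor, and ITGAX, an integrin of dendritic cells, lower in every catagen library (13.3%, beside 3.63% of all genes). The summed level of the tested markers was 63.47 to 76.23 in catagen, 83.53 and 113.8 in September and 67.3 and 73.69 in May, so it overlapped with May. Fibroblast collagens split the catagen libraries: COL1A2 had 237.49, 82.99, 99.84 and 253.76 in catagen, against 259.11 and 236.84 in September and 515.32 and 563.04 in May, with the November male and December female low. The difference was -1.28 (SE 0.4712, adjusted p = 0.2676). Melanocyte markers had 1 of 15 genes higher in every catagen library (SLC24A5; 6.67%, beside 3.4% of all genes). Sweat gland markers had 1 higher (SLC12A2) and 1 lower (AQP5) of 11, 9.09% each, beside 3.4% and 3.63% of all genes. Nerve and Schwann cell markers (14 tested), T and B cell markers (14) and fibroblast markers (20) had 0 without overlap. No marker list had a gene at 0 in all 8 libraries. The part of these cell types in the stage differences was not tested.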

How the data were processed

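Total RNA of secondary hair follicles was sequenced on an Illumina instrument, per the labels' protocols. The authors deposited 1 signal value per gene and library, headed TPM, and kallisto 0.46.1 and sleuth 0.30.0 are named in the submitters' processing notes. The library sums ran from 904623 to 1127797, so a rescaling step not given in the sources used here had been applied, and depth and counting error are unknown. The genome build and annotation are not given in the sources used here; gene order comes from RefSeq ARS1.2, in which 20294 of 20326 gene IDs matched.

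Genes whose value reached 1 in 2 or more of the 12 libraries were tested on log2(value + 1) with limma 3.58.1 (R 4.3.3), with trend, all 12 libraries sharing 1 spread and Benjamini-Hochberg adjustment over 16095 genes at 0.05. The stage comparison used stage as the factor; the others used month, or stage and sex. Every adjusted p comes from limma. P-values measure the spread between these libraries, and catagen libraries enter the differences from September and from May alike. The replicate number marks sex.

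Genes were named by rule: all that passed for the stages; the 10 highest and 10 lowest ranked without overlap; the 5 largest rises and falls that passed against each anagen month; a hair-cycle panel; and up to 3 of the most abundant members per list at an unadjusted p below 0.05. The 38 lists hold 907 symbols, of which 818 were found and 796 tested, with S-LZ standing for LYZ by synonym. Members and lists were chosen with earlier results of these data known. Shares of a list set beside those of all genes are therefore descriptive and no test. The fits were also run on simulated data, drawn without differences between months apart from a shift of all catagen libraries in some genes. Spread between the months of a stage was left out, so that run cannot judge the stage calls. Alternatives covered scaling, the filter, the pseudocount, the replicate block, the trend, the telogen libraries and leaving out libraries.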

Additional observations from a re-analysis of the deposited data

Results flagged for a closer look

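Among groups of 4 libraries, 16 of 258 groups examined had 1 library far from the rest, where chance gives about 1 in 20 groups. Within catagen the December female had the lowest ribosomal share, 20.7%, and the November male the lowest share of signal in its 10 most abundant genes, 10.9%. The November female stood high for LOC108633164 at 12.05, PLIN3 at 20.75 and AQP5 at 9.46. The November male stood high for SPINK7 at 52.44 and ACTA1 at 4.15. The December female stood high for MKI67 at 15.41 and low for TNFRSF18 at 3.97. The December male stood high for SLC12A2 at 40.15, and it alone had MYL1 above 0, at 0.16. Within anagen the September male stood high for S100A9 at 47.43 and NSDHL at 33.36 and low for CD207 at 2.27. The May female stood high for SOX9 at 114.3 and PORCN at 16.62.

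The catagen difference itself depended on the anagen month for 6 named genes, by the test of September against May in limma. These genes were named for their difference from a single anagen month, whose libraries this test uses again, so it is no independent check. September exceeded May by 1.446 for ACADSB (adjusted p = 0.02213) and by 2.0627 for DES (adjusted p = 0.006031). The September minus May difference was -5.3318 for TNNC2 (adjusted p = 1.546e-05), -5.1431 for MYLPF (adjusted p = 1.546e-05), -4.0046 for MYL1 (adjusted p = 0.001265) and -3.948 for ACTA1 (adjusted p = 0.002386).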

How the results depend on the processing

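Among the counts and the named genes no called value reversed under the alternatives run; over the named genes 3137 values kept their side of the threshold or moved within the spread, 116 lost the call, 34 gained it and 58 moved. For catagen against anagen, 9 genes in the reported fit, the count was 4 with the 8 libraries alone, 29 with month as the factor, 4 without both May libraries and 323 without both September libraries, and 3 to 13 with 1 library left out. Against September, 6 genes, it was 3 with a pseudocount of 0.1 and 3 to 7 with 1 library left out. Against May, 287 genes, it was 183 with quantile normalization, 561 with libraries rescaled to 1 sum, 142 without a filter, 1413 with the 8 libraries alone, and 20 to 1106 with 1 library left out. September against May, 22 genes, gave 4 with a filter of 5 in 4 libraries, 12 with a pseudocount of 0.1, and 11 to 33 with 1 library left out. November against September, 3 genes, gave 5 with a pseudocount of 0.1 and 0 to 5 with 1 library left out. December against November gave 0 to 3, and the interaction of sex and stage 0 to 2. The causes were not tested.

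Same-numbered libraries share a sex and no stated pairing; over 6 pairs of months their deviations correlated at 0.0993 to 0.404; since not every pair exceeded 0.1, the numbers were not taken to pair them. With the replicate block the count was 9 for catagen against anagen, 3 against September (KRT4 and ACADSB were among those lost, at adjusted p = 0.08939 and 0.09952), 425 against May, 21 for September against May, 1 for November against September and 0 for December against November. Among marker lists the median changed sign for smooth muscle without both May libraries, for myeloid and T and B cells without both September libraries, for melanocytes without the May male, for sweat gland without either or both May libraries and for melanocytes and skeletal muscle with the filter of 5 in 4 libraries. Without depths, counting error for genes at low values could not be set.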
